A study of Mus musculus with 5 samples.

Results

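The 42 interferon-stimulated genes described here were chosen by name as known targets of interferon. Earlier results of these data were known at that time, so no test was run over the list as a whole. All 42 were found among the 28666 genes of the deposited count table, and all 42 were among the 17013 genes with enough counts to be tested. They were measured by RNA sequencing of the uteri of ICR females, an outbred mouse strain, aged 6 to 8 weeks. Before collection the females were housed and mated with vasectomized males of the C57BL/6 strain. The ejaculate of such males holds seminal plasma (SP) but no sperm, so that all of them were pseudopregnant and no unmated control was analysed here. The aged-SP group (n = 2, replicates 1 and 4) was mated with males of a year or more, and the young-SP group (n = 3, replicates 1, 2 and 4) with males a few months old. The labels give the collection as 3.5 days after caging, and the methods of the study as 3.0 dpc, before any embryo was transferred.

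Interferons are cytokines that put cells into an antiviral state. Type I and type III interferons act through the kinases JAK1 and TYK2, which switch on ISGF3, a transcription factor built with STAT2 and IRF9 that binds the interferon-stimulated response element (ISRE) in the promoters of its targets. Interferon gamma acts through its own receptor and induces a partly shared set of genes, among them Irf1 and the guanylate-binding proteins. Some of these targets are known to respond to the conceptus and to steroid hormones in the uterus of several mammals, and interferon epsilon is a type I interferon made by the epithelium of the female reproductive tract.

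The ISRE was looked for in the RefSeq promoter windows (GRCm38.p6), which run from 250 bases before to 50 bases after the start of a gene. The letters searched were GAAANNGAAA and, for the other strand, TTTCNNTTTC, and neighbouring matches could overlap. Of the 31 genes of the list with a window, 18 held a match (58.1%), against 3.99% of the 27025 genes with a window. The match lay before the start in 15 of the 18 and only after it in the other 3, which were Ddx58, Ifih1 and Ifitm3. The other 11 genes, among them Mx1, Mx2, Oas2, Zbp1, Usp18 and Ifi27, were not matched to a window. The stretches before the start of 6 genes are printed here 5′ to 3′ on the strand of the gene, because the element recurs in the list and because these genes, from Bst2 to Oas3, differed in how far their levels ranged. Capitals mark the matches, and a run longer than the motif holds overlapping ones.
Isg15, chr4:156200819-156200978, minus strand: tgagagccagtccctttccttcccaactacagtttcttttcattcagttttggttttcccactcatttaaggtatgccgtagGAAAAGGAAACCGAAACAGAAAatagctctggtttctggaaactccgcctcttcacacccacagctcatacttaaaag
Oas3, chr5:120777660-120777819, minus strand: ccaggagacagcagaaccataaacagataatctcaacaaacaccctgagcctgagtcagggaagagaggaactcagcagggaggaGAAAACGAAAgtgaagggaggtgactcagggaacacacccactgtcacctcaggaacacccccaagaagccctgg
Ifit1, chr19:34640729-34640888, plus strand: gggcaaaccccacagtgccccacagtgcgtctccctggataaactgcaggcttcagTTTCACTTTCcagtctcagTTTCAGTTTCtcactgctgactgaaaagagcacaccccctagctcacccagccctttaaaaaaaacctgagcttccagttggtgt
Ifit3, chr19:34583339-34583528, plus strand: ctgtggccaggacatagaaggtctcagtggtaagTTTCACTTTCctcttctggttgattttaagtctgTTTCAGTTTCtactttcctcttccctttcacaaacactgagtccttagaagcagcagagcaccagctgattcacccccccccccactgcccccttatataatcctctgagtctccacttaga
Ifit3b, chr19:34607767-34607956, plus strand: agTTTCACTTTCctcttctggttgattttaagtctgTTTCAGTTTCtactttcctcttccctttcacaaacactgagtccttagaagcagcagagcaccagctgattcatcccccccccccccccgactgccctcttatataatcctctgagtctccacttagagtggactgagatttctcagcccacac
Bst2, chr8:71537473-71537632, minus strand: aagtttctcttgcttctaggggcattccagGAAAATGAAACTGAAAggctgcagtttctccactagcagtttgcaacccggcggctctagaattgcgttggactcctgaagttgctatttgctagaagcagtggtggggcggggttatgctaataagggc
The nearest match began 66 bases before the start of Isg15, 75 bases before that of Oas3, 85 bases before that of Ifit1 and 124 bases before that of Bst2. The windows of Ifit3 and its near-identical copy Ifit3b carried the same pair of matches, which began 156 and 122 bases before the start of Ifit3 and 188 and 154 bases before that of Ifit3b. Across the 5 libraries, the highest level of a gene was a median of 3.34 times its lowest among the 18 genes with a match and 2.74 times among the 13 without one, with ranges of 1.45 to 33.2 and 1.74 to 7.91. Among the 11 genes without a window the median was 4.74 times, with a range of 1.27 to 15.1. All these ranges overlapped, the 11 could not be sorted by match, and a match of letters is not a measured binding site.

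The total count lay between 15071914 and 16728601 per library, and the genes of the list held between 28 and 11410 counts in a library. The aged-SP and young-SP libraries were set against each other in the two-sided quasi-likelihood test of edgeR, and p-values were adjusted over all tested genes by the Benjamini-Hochberg method. A gene was called where its adjusted p was under 0.05 and its log2 fold change was over 1 in size. A positive fold change means a higher level in the aged-SP group, SE is the standard error of the log2 fold change, and levels are counts scaled to a common library size (CPM) with TMM factors. The labels do not say that the libraries came from separate females, so the p-values measure the spread between these libraries. Young-SP replicate 1 stood apart from the other young-SP libraries. Among all tested genes, 25 were called with the 5 libraries. Leaving out 1 young-SP library gave 578 calls for replicate 1, 3 for replicate 2 and 2 for replicate 4. For this reason the results are given with and without young-SP replicate 1. It was singled out from these same data, so the p-values without it are a description and not an independent test.

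Interferon-stimulated genes were high in both aged-SP libraries and in young-SP replicate 1, and low in young-SP replicates 2 and 4. The summed level of the 42 genes was 3859 CPM in aged-SP replicate 1 and 3074 CPM in aged-SP replicate 4. It was 4400 CPM in young-SP replicate 1, 1735 CPM in young-SP replicate 2 and 1867 CPM in young-SP replicate 4. The sum was thus highest and lowest within the same group. Relative to the mean of each gene over the 5 libraries, the median of the 42 genes was 0.68 and 0.25 on the log2 scale in aged-SP replicates 1 and 4, 0.71 in young-SP replicate 1, and -0.96 and -0.83 in young-SP replicates 2 and 4.

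This order was shared by nearly all of the genes. Young-SP replicates 2 and 4 had the 2 lowest levels in 39 of the 42 genes, an order found in 16.3% of all tested genes. The 3 exceptions were Ddx58, Xaf1 and Ifi27. Young-SP replicate 1 had the highest level in 28 of the 42 genes (20.6% of all tested genes), aged-SP replicate 1 in 13 (22.8%) and aged-SP replicate 4 in 1 (21.1%), which was Ifi27. Aged-SP replicate 1 lay above aged-SP replicate 4 for 39 of the 42, where 48.6% of the tested genes did so, and young-SP replicate 4 above young-SP replicate 2 in 34, against 49.6%. These genes share the libraries and respond to the same pathway, so they are not independent of each other, and the counts are given as a description.

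**Figure D1:**
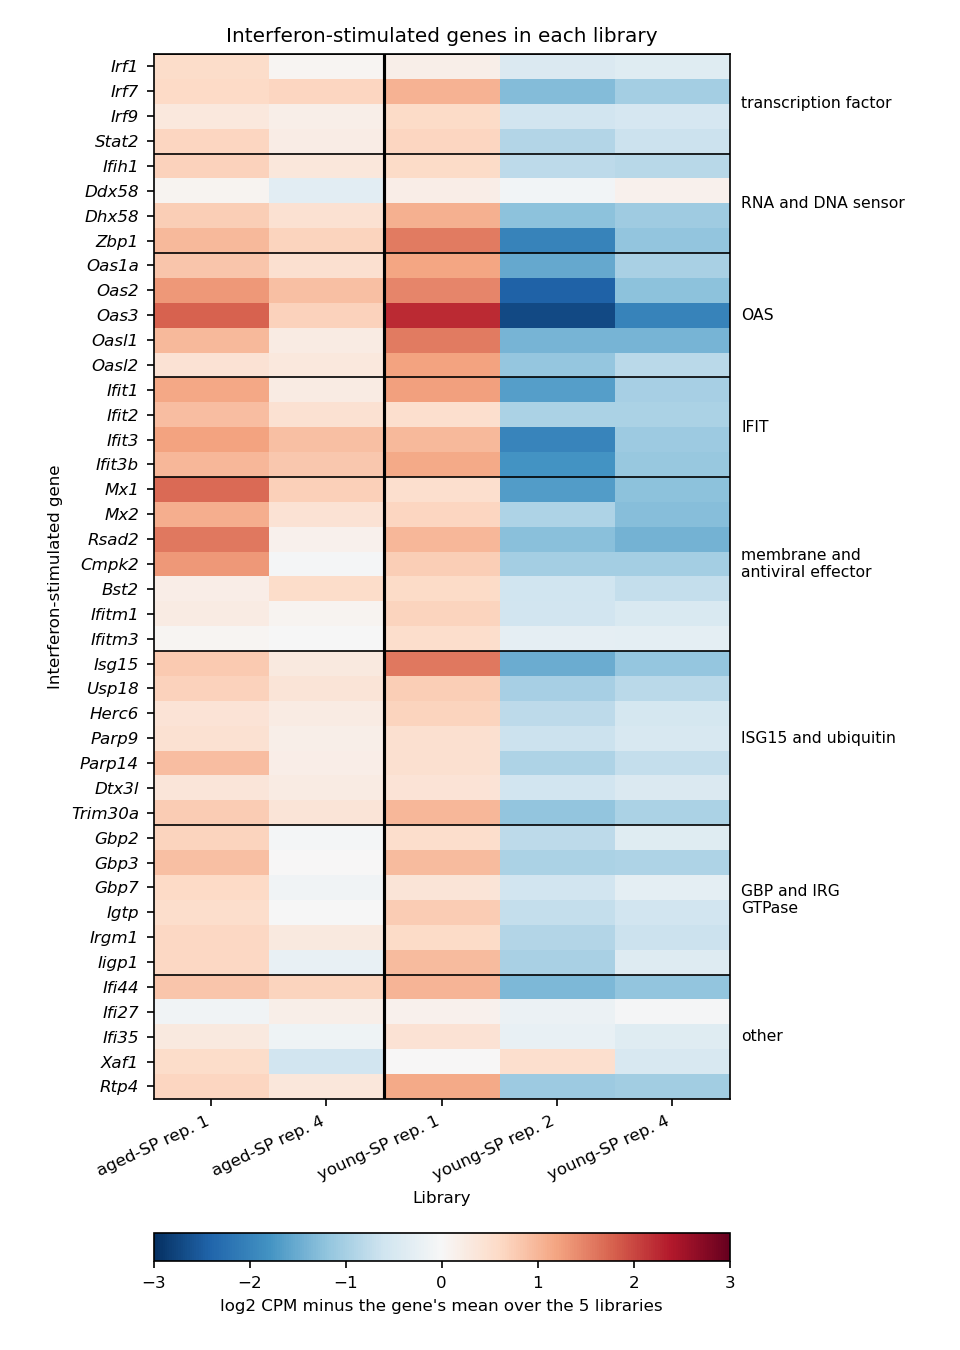
Level of the 42 interferon-stimulated genes (rows, grouped by role) in the 5 libraries (columns), as log2 CPM minus the mean of the gene over the 5 libraries, with red above and blue below that mean. Young-SP replicates 2 and 4 are blue in nearly every row, with medians of -0.96 and -0.83, while young-SP replicate 1 is red like the aged-SP libraries, with a median of 0.71.

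With all 5 libraries, 0 of the 42 genes were called, where the share of all tested genes called was 0.147%. The smallest adjusted p was 0.258 (edgeR), and 1 gene, Mx1, had an unadjusted p under 0.05, against 19.0% of all tested genes. DESeq2, the tool named in the methods of the study, also called 0 of the 42, against 3.60% of the genes it tested, with a smallest adjusted p of 0.0806, and gave 2 genes an unadjusted p under 0.05. The mean level was nevertheless higher in the aged-SP group for 40 of the 42 genes, a direction that 50.9% of all tested genes had. The median log2 fold change was 0.55, against 0.01 over all tested genes, and 4 genes were over 1. These were Mx1, Ifit3, Rsad2 and Mx2. The 2 genes with a negative log2 fold change were Ddx58 (-0.20) and Ifitm3 (-0.02).

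The standard error of the log2 fold change had a median of 0.57 over the 42 genes, against 0.19 over all tested genes. In 42 of the 42 genes, the range of the young-SP libraries was wider than the difference between the group means on the log2 scale, which held for 65.7% of all tested genes. The aged-SP and young-SP libraries did not overlap in 1 of the 42 genes, Mx1, whereas 19.5% of all tested genes had both aged-SP libraries above the 3 young-SP libraries. The level in young-SP replicate 1 was a median of 3.08 times the mean of young-SP replicates 2 and 4, from 0.941 times for Xaf1 to 24.7 times for Oas3.

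Without young-SP replicate 1, the same test (2 libraries against 2) called 22 of the 42 genes higher in the aged-SP group and 0 lower, where 1.74% of the 16745 genes tested were called higher. The median log2 fold change was then 1.43, against 0.00 over all genes. Both aged-SP libraries lay above both young-SP libraries in 39 of the 42 genes (28.6% of all genes), and 38 had an unadjusted p under 0.05 with a higher level in the aged-SP group (11.6%). The 4 others were Ddx58, Ifi27, Ifi35 and Xaf1. Without young-SP replicate 2 or 4, 0 of the 42 genes were called, where only 3 and 2 of all genes were called. These fits called so few genes of any kind that 0 calls say little about the list. The median log2 fold change lay between 0.25 and 0.74 without young-SP replicate 2 or 4 or either aged-SP replicate. The 22 calls came with the removal of young-SP replicate 1, and the labels give no reason to remove it.

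**Figure D2:**
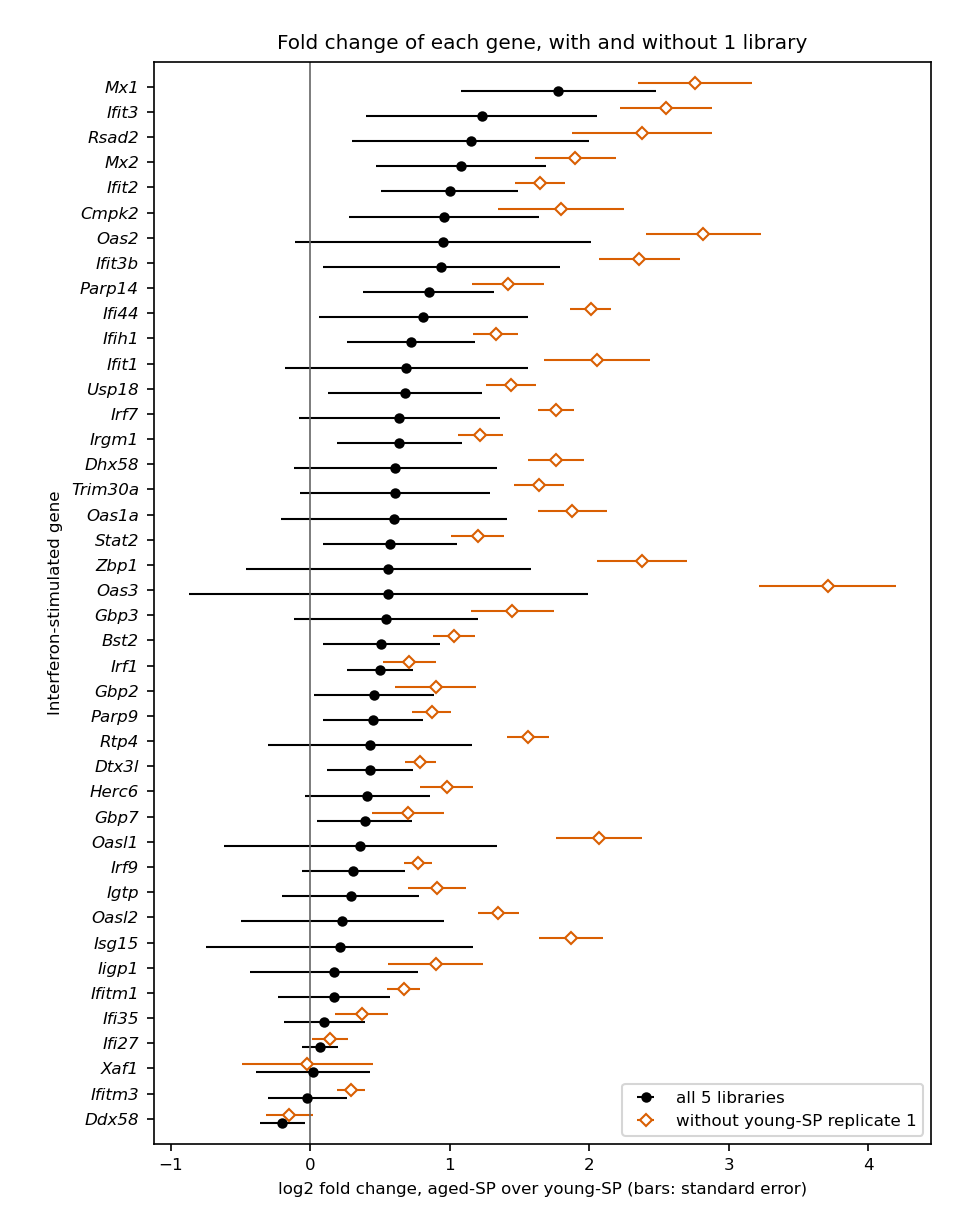
Log2 fold change (positive where the aged-SP group was higher) for each of the 42 genes from edgeR, with all 5 libraries (black circles) and without young-SP replicate 1 (orange diamonds), where bars are standard errors. With all libraries most bars reach or come near 0 and the median is 0.55, whereas without this library the median is 1.43 and the largest value is that of Oas3 at 3.71.

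Among the transcription factors of the pathway, the 4 genes of the list were all higher on average in the aged-SP group, and 0 were called. Irf7, on chromosome 7 (141262706 to 141266481), encodes the factor that amplifies the type I interferon genes. It was at 87.6 and 91.3 CPM in aged-SP replicates 1 and 4 and at 120, 23.5 and 28.7 CPM in young-SP replicates 1, 2 and 4. The groups overlapped through young-SP replicate 1, which was the highest of the 5. The means were 89.5 ± 2.64 CPM (SD, n = 2) and 57.5 ± 54.4 CPM (SD, n = 3), giving a log2 fold change of 0.64 (SE 0.72, edgeR adjusted p = 0.671). It was 1.76 when young-SP replicate 1 was left out (edgeR adjusted p = 0.0126). Stat2 and Irf9, the partners in ISGF3, had log2 fold changes of 0.57 and 0.31, and Irf1, which interferon gamma induces directly, of 0.50. Irf1 had the smaller spread, from 45.5 to 90.4 CPM, while Stat2 ranged from 33.0 to 96.3 CPM. Irf7 and Stat2 were called when that library was left out.

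Of the 4 sensors of foreign nucleic acid, 3 followed the common order and 1 did not. Zbp1, a sensor of Z-form nucleic acid on chromosome 2 (173206612 to 173218923), was at 36.5 and 29.5 CPM in aged-SP replicates 1 and 4, and at 54.8, 4.49 and 8.08 CPM in young-SP replicates 1, 2 and 4. Its lowest library thus lay within the same group as its highest. The log2 fold change was 0.56 (SE 1.02, edgeR adjusted p = 0.804) and 2.38 without young-SP replicate 1 (edgeR adjusted p = 0.0286). Ifih1, which encodes the double-stranded RNA sensor MDA5, and Dhx58, which encodes LGP2, had log2 fold changes of 0.72 and 0.61, and both were called without young-SP replicate 1. Ddx58, on chromosome 4 (40203773 to 40239828), encodes RIG-I, a sensor of RNA with a free triphosphate end. It was at 107 and 81.5 CPM in aged-SP replicates 1 and 4 and at 118, 95.6 and 112 CPM in young-SP replicates 1, 2 and 4. All 5 libraries were close to each other, the log2 fold change was -0.20 (SE 0.16, edgeR adjusted p = 0.532), and without young-SP replicate 1 it was -0.15.

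The oligoadenylate synthetases (OAS), which sense double-stranded RNA and make short oligoadenylates, showed the widest range of the list. In all 5 of these genes, young-SP replicates 2 and 4 were the 2 lowest libraries and young-SP replicate 1 the highest. Oas3, on chromosome 5 (120753098 to 120777661), was at 39.8 and 18.7 CPM in aged-SP replicates 1 and 4, and at 55.0, 1.66 and 2.80 CPM in young-SP replicates 1, 2 and 4. Its highest library was 33.2 times its lowest, the widest range of the 42 genes, and the group means of 29.3 ± 15.0 CPM (SD, n = 2) and 19.8 ± 30.5 CPM (SD, n = 3) could not be separated (log2 fold change 0.56, SE 1.43, edgeR adjusted p = 0.865). The log2 fold change was 3.71 without young-SP replicate 1 (edgeR adjusted p = 0.0285) and -0.09 without aged-SP replicate 1. Oas2, its neighbour at 120730333 to 120749853, was at 80.8 and 61.7 CPM in aged-SP replicates 1 and 4, and at 90.8, 6.03 and 14.0 CPM in young-SP replicates 1, 2 and 4. The aged-SP libraries again lay between the young-SP ones (log2 fold change 0.95, SE 1.06, edgeR adjusted p = 0.666).

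Oasl2, on chromosome 5 (114896936 to 114912234), encodes an OAS-like protein with ubiquitin-like domains. It was at 124 and 113 CPM in aged-SP replicates 1 and 4, and at 211, 40.5 and 51.6 CPM in young-SP replicates 1, 2 and 4. Young-SP replicate 1 was well above both aged-SP libraries, and the log2 fold change of 0.23 (SE 0.73, edgeR adjusted p = 0.893) turned to -0.15 and -0.10 without young-SP replicates 2 and 4. Oas1a and Oasl1 had log2 fold changes of 0.60 and 0.36. The count of Oas1a is uncertain, because 57.6% of its stretches of 50 bases also occur in the transcripts of Oas1g. All 5 OAS genes were called without young-SP replicate 1, at a median of 2.07.

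The IFIT genes, whose proteins bind foreign RNA and hinder its translation, had a median log2 fold change of 0.97 over the 4 members of the list. Ifit3, on chromosome 19 (34583531 to 34588731), was at 34.3 and 27.6 CPM in aged-SP replicates 1 and 4 and at 29.1, 3.67 and 6.88 CPM in young-SP replicates 1, 2 and 4. Here young-SP replicate 1 lay between the aged-SP libraries, and the log2 fold change was 1.23 (SE 0.83, edgeR adjusted p = 0.466). Ifit3 shares 51.2% of its stretches of 50 bases with Ifit3b, whose promoter is printed beside it, so the counts of the pair are uncertain. Ifit3b had a log2 fold change of 0.94, Ifit2 of 1.0 and Ifit1 of 0.69. With that library left out, 3 of the 4 were called, with log2 fold changes of 2.55 (Ifit3), 2.36 (Ifit3b) and 1.65 (Ifit2), and Ifit1 was at 2.06 with an adjusted p of 0.0535 (edgeR).

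Mx1 gave the largest log2 fold change of the list. It is the gene of a dynamin-like GTPase and lies on chromosome 16 (97447035 to 97462907). It was at 26.7 and 13.4 CPM in aged-SP replicates 1 and 4 and at 11.6, 2.48 and 3.40 CPM in young-SP replicates 1, 2 and 4. Both aged-SP libraries were above the 3 young-SP libraries, although aged-SP replicate 4 exceeded young-SP replicate 1 by little. The means were 20.0 ± 9.35 CPM (SD, n = 2) and 5.82 ± 5.0 CPM (SD, n = 3), giving a log2 fold change of 1.78 (SE 0.70, edgeR unadjusted p = 0.0473 and adjusted p = 0.258, adjusted p = 0.0806 in DESeq2). With young-SP replicate 1 left out it was 2.76 (edgeR adjusted p = 0.0351). Its relative Mx2 had a log2 fold change of 1.08. Rsad2, which encodes viperin, an enzyme that makes a chain-terminating nucleotide, had 1.15, and Cmpk2, a nucleotide kinase gene beside it, 0.96.

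The membrane proteins of the list were the most abundant of its genes and moved less. Per length, Ifitm3, Ifitm1 and Bst2 had the highest mean levels of the 42 genes at 744, 291 and 224 FPKM, followed by Isg15 at 51.9 FPKM, and Herc6 had the lowest at 1.59 FPKM. Ifitm3 encodes a membrane protein that hinders the entry of viruses and lies on chromosome 7 (141009586 to 141010770). It was at 513 and 491 CPM in aged-SP replicates 1 and 4 and at 714, 408 and 405 CPM in young-SP replicates 1, 2 and 4. The group means of 502 ± 15.6 CPM (SD, n = 2) and 509 ± 177 CPM (SD, n = 3) differed by less than this spread (log2 fold change -0.02, SE 0.28, edgeR adjusted p = 0.976), and the sign turned with limma-voom (0.03), without aged-SP replicate 4 (0.01) and without young-SP replicate 1 (0.29). Ifitm1, at 140967221 to 140969825 of the same chromosome, was at 361 and 323 CPM in aged-SP replicates 1 and 4 and at 483, 205 and 222 CPM in young-SP replicates 1, 2 and 4. It kept the common order of the libraries, with a log2 fold change of 0.17 (SE 0.40, edgeR adjusted p = 0.846) that turned to -0.04 and -0.01 without young-SP replicates 2 and 4.

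Bst2, on chromosome 8 (71534255 to 71537456), encodes tetherin, which holds budding viruses at the cell surface. It was at 216 and 280 CPM in aged-SP replicates 1 and 4 and at 280, 124 and 116 CPM in young-SP replicates 1, 2 and 4. It was 1 of the 3 genes of the list with aged-SP replicate 4 above aged-SP replicate 1, beside Irf7 and Ifi27. The log2 fold change was 0.51 (SE 0.42, edgeR adjusted p = 0.542) and 1.03 without young-SP replicate 1 (edgeR adjusted p = 0.0344). Of the 7 membrane and antiviral effectors, 3 (Mx1, Mx2 and Bst2) were called without that library.

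**Figure D3:**
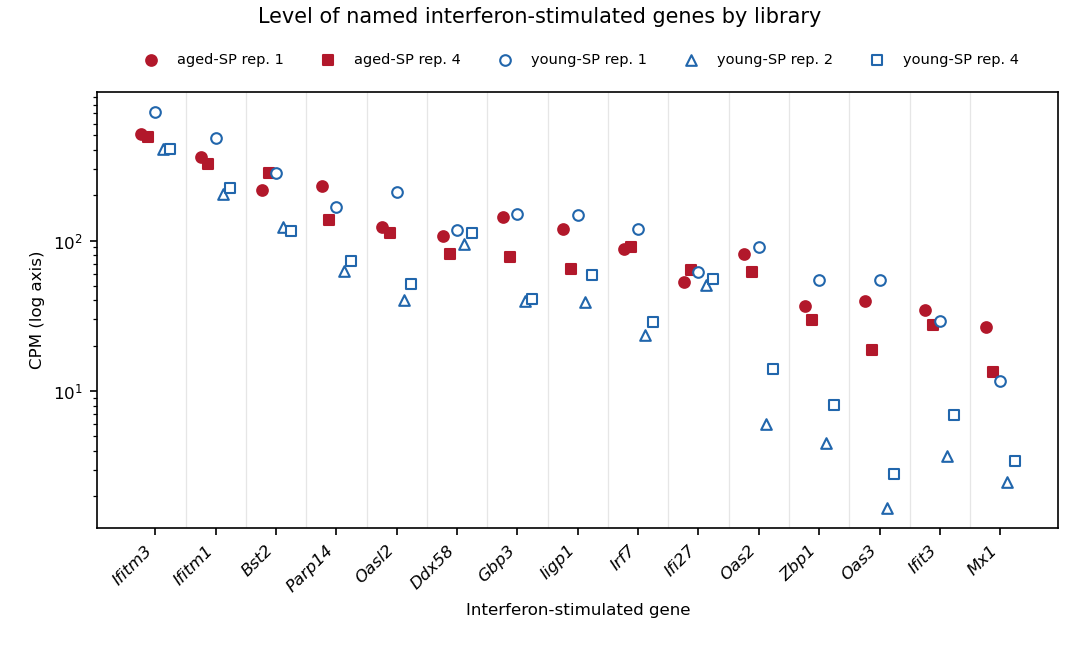
CPM (log axis) of 15 of the interferon-stimulated genes in each library, ordered by mean level, with filled red symbols for aged-SP and open blue symbols for young-SP libraries. Young-SP replicates 2 and 4 lie far below the other 3 libraries for Oas2, Zbp1, Oas3, Ifit3 and Mx1, whereas the 5 libraries lie close together for Ddx58 and Ifi27.

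The genes of ISG15 conjugation, ubiquitin transfer and ADP-ribosylation were all higher on average in the aged-SP group (7 of 7), with a median log2 fold change of 0.45, and 0 were called. Parp14, a mono-ADP-ribosyltransferase gene on chromosome 16 (35832874 to 35871544), was at 229 and 138 CPM in aged-SP replicates 1 and 4 and at 168, 63.2 and 73.1 CPM in young-SP replicates 1, 2 and 4. Young-SP replicate 1 fell between the aged-SP libraries, and the log2 fold change was 0.85 (SE 0.47, edgeR adjusted p = 0.388) and 1.42 without young-SP replicate 1 (edgeR adjusted p = 0.0536). Isg15, the ubiquitin-like modifier, ranged from 10.3 CPM in young-SP replicate 2 to 88.1 CPM in young-SP replicate 1, with a log2 fold change of 0.21. Usp18, which removes ISG15 and dampens the receptor, had a log2 fold change of 0.68, Trim30a of 0.61, Herc6, the ISG15 ligase of the mouse, of 0.41, and the partners Parp9 and Dtx3l of 0.45 and 0.43. The exons of Parp9 and Dtx3l overlap by 458 bases on opposite strands, and the strand setting of the counting is not given in the sources used here. Isg15, Usp18 and Trim30a were called when young-SP replicate 1 was left out.

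The GTPases that guard the cell against intracellular parasites had small differences, with a median log2 fold change of 0.42 over 6 genes. Gbp3, on chromosome 3 (142560026 to 142573209), was at 144 and 78.1 CPM in aged-SP replicates 1 and 4 and at 150, 39.8 and 40.8 CPM in young-SP replicates 1, 2 and 4. The 2 libraries at the top came from different groups (log2 fold change 0.54, SE 0.66, edgeR adjusted p = 0.700). Iigp1 was at 119 and 65.0 CPM in aged-SP replicates 1 and 4 and at 147, 39.2 and 58.7 CPM in young-SP replicates 1, 2 and 4. Aged-SP replicate 4 and young-SP replicate 4 were close, the log2 fold change was 0.17 (SE 0.60, edgeR adjusted p = 0.904), and its sign turned when aged-SP replicate 1 (-0.33), young-SP replicate 2 (-0.17) or young-SP replicate 4 (-0.03) was left out. Gbp2, Gbp7, Igtp and Irgm1 had log2 fold changes of 0.46, 0.39, 0.29 and 0.64, and Irgm1 alone of the 6 was called without young-SP replicate 1. Igtp shares 11.8% of its stretches of 50 bases with Irgm2.

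Of the 5 remaining genes, 3 had their lowest levels in young-SP replicates 2 and 4, which were Ifi44, Rtp4 and Ifi35. Ifi44 and Rtp4 had log2 fold changes of 0.81 and 0.43, and both were called without young-SP replicate 1, at 2.01 and 1.56. Ifi27, on chromosome 12 (103434211 to 103440239), was at 53.1 and 64.2 CPM in aged-SP replicates 1 and 4 and at 61.8, 50.4 and 55.3 CPM in young-SP replicates 1, 2 and 4. Its highest library was 1.27 times its lowest, the narrowest range of the list, and the log2 fold change was 0.07 (SE 0.13, edgeR adjusted p = 0.809). Xaf1, a pro-apoptotic gene, ranged from 31.9 CPM in aged-SP replicate 4 to 69.6 CPM in aged-SP replicate 1, with a log2 fold change of 0.02. Ifi35 ranged from 15.1 to 26.3 CPM, with a log2 fold change of 0.10.

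The genes of the interferons themselves, apart from Ifne, were nearly undetected. Of the 21 ligand genes looked up, 7 were in the table and 1 had enough counts to be tested. This was Ifne, the gene of interferon epsilon, at 8.40 and 1.34 CPM in aged-SP replicates 1 and 4 and at 7.07, 0.828 and 1.47 CPM in young-SP replicates 1, 2 and 4. It was high in aged-SP replicate 1 and young-SP replicate 1, the libraries that were highest for 13 and 28 of the 42 interferon-stimulated genes, but not in aged-SP replicate 4 (log2 fold change 0.64, SE 1.10, edgeR adjusted p = 0.787). Ifng had between 2 and 6 counts in each library. Ifnb1 had 1 count, in aged-SP replicate 1, and 0 in the others, and Ifna4, Ifnk, Ifnl2 and Ifnz had at most 2 counts in a library. A count of 0 allows up to 3 counts, which covers counting error only, so a difference in these genes was not detectable at this depth.

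The 6 receptor genes had higher means in the aged-SP group, by log2 fold changes of 0.19 to 0.44, and 0 were called. Ifnar2, a chain of the type I receptor, was at 60.0 and 52.6 CPM in aged-SP replicates 1 and 4 and at 47.0, 43.9 and 42.1 CPM in young-SP replicates 1, 2 and 4. The groups did not overlap, but the difference was small (log2 fold change 0.35, SE 0.10, edgeR unadjusted p = 0.0174 and adjusted p = 0.177). Its partner Ifnar1 had a log2 fold change of 0.30. Among the 9 signal transducers 6 were higher and 3 lower, with a median log2 fold change of 0.07. Stat3 and Irf2 had an unadjusted p under 0.05, with log2 fold changes of 0.47 and 0.36 (adjusted p = 0.200 and 0.242 in edgeR), while the kinases Jak1 and Jak2 were lower on average by log2 fold changes of -0.21 and -0.27.

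A further list of 64 interferon-induced genes, of which 62 were tested, went in the same direction, with smaller differences. The mean was higher in the aged-SP group for 54 of the 62, young-SP replicates 2 and 4 were the 2 lowest libraries in 55, and the median log2 fold change was 0.31. EdgeR called 0 of them with all libraries (0.147% of all tested genes) and 12 without young-SP replicate 1, all 12 higher in the aged-SP group (1.74% of all tested genes). DESeq2 called 2 of the 62 with all libraries, a share near its 3.60% of all genes, among them the chemokine gene Cxcl11, named after its values were seen, whose level of 8.22 CPM in aged-SP replicate 1 stood against 0.134 to 0.625 CPM in the other 4 libraries. Of gene ontology terms in the deposited table, with the 42 genes left out, cellular response to interferon-beta had 17 of 28 tested genes with a higher mean in the aged-SP group, cellular response to interferon-gamma 56 of 96 and defense response to virus 83 of 127, against 50.9% of all genes. EdgeR called 0 genes in each, and DESeq2 called 0, 2 and 3.

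Markers of some cell types moved with the same libraries. In whole-uterus RNA, fewer cells of a type cannot be told apart from less RNA per cell. All 9 epithelial markers were detected in every library, and their summed level was 3915 to 5609 CPM in the aged-SP group and 934 to 5252 CPM in the young-SP group, with 5 of the 9 lowest in young-SP replicates 2 and 4. Most of this range came from Ltf: the other 8 markers summed to 1207 and 1279 CPM in aged-SP replicates 1 and 4 and to 1620, 906 and 1086 CPM in young-SP replicates 1, 2 and 4. Ltf, the gene of lactotransferrin, which the luminal and glandular epithelium makes under estrogen, was at 2708 and 4330 CPM in aged-SP replicates 1 and 4 and at 3632, 28.3 and 394 CPM in young-SP replicates 1, 2 and 4. Epcam was at 262 and 235 CPM in aged-SP replicates 1 and 4 and at 281, 76.6 and 87.0 CPM in young-SP replicates 1, 2 and 4. Both had the order of the interferon-stimulated genes, while Krt8, Krt19 and Foxa2 of the same list did not. Cldn3, a tight junction gene of the list named after its values were seen, was lower in the aged-SP group, at 91.5 and 96.1 CPM against 179, 188 and 208 CPM in young-SP replicates 1, 2 and 4 (log2 fold change -1.03, edgeR adjusted p = 0.0552, DESeq2 adjusted p = 8.01e-12).

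The 6 neutrophil markers summed to 29.4 to 107 CPM in the aged-SP group and to 35.3 to 250 CPM in the young-SP group, and the highest value of each group was that of replicate 1. S100a9 was at 50.1 and 2.17 CPM in aged-SP replicates 1 and 4 and at 102, 14.5 and 5.34 CPM in young-SP replicates 1, 2 and 4. Its low level in aged-SP replicate 4, where the interferon-stimulated genes were high, set it apart from them. S100a8 and Cxcr2 were also lowest in aged-SP replicate 4. By contrast, 2 of the 6 markers, Ly6g and Csf3r, had their lowest levels in young-SP replicates 2 and 4. Ly6g was highest in aged-SP replicate 4, at 1.22 CPM, and Retnlg was lowest in young-SP replicate 1, at 8.63 CPM. General leukocyte genes (7 of 7 detected) summed to 455 and 470 CPM in aged-SP replicates 1 and 4. They summed to 600, 416 and 421 CPM in young-SP replicates 1, 2 and 4. This sum was lowest in young-SP replicates 2 and 4, as were 3 of the 7 genes (16.3% of all tested genes). Macrophage genes (9 of 9) summed to 601 to 952 CPM in the aged-SP group and 486 to 1007 CPM in the young-SP group. Siglech, a defining marker of plasmacytoid dendritic cells, the main producers of type I interferon in blood, was between 1.88 and 3.55 CPM in the 5 libraries, with its lowest level in young-SP replicate 1. Of the 7 genes of its list, 3 were lowest in young-SP replicates 2 and 4, which were Bst2, itself one of the 42, Klk1 and Ly6d. Ccr9 and Pacsin1, like Siglech, were highest in young-SP replicate 2, with log2 fold changes of -0.36 and -0.53. Tcf4 had a log2 fold change of 0.04. Klk1 was at 95.7 and 9.27 CPM in aged-SP replicates 1 and 4 and at 8.01, 2.36 and 4.54 CPM in young-SP replicates 1, 2 and 4, and Ly6d between 0.0591 and 3.69 CPM, both without overlap of the groups (log2 fold changes 3.40 and 2.51, edgeR adjusted p = 0.171 and 0.234). The share of counts on mitochondrial genes was 3.55% to 4.45%. The part of these cell types in the levels of the 42 genes was not tested.

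**Figure D4:**
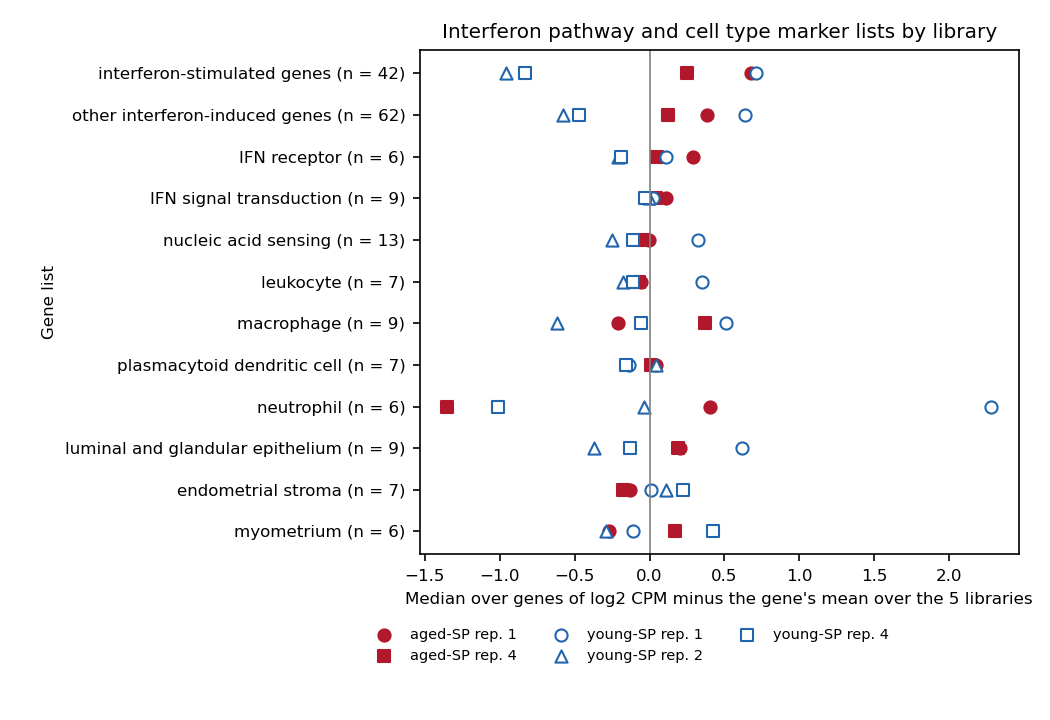
Median over the genes of each list of log2 CPM minus the mean of the gene over the 5 libraries (horizontal axis), for the interferon pathway and cell type marker lists (rows), with filled red symbols for aged-SP and open blue symbols for young-SP libraries. The 42 interferon-stimulated genes spread from -0.96 to 0.71 and the 62 further ones from -0.58 to 0.64, the signal transducers stay near 0, and the neutrophil markers reach 2.28 in young-SP replicate 1 and -1.35 in aged-SP replicate 4.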

How the data were processed

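RNA of whole uteri in 5 libraries was analysed, 2 of the aged-SP and 3 of the young-SP group, and groups were taken from the sample labels. Reads were filtered and aligned by the authors with HISAT2 2.1.0, and counts per gene were deposited without normalization. The submitters' processing notes also name HTSeq 0.6.0 and Bowtie2 2.2.3. The FPKM values deposited by the authors equal the counts divided by gene length and library total, and were used to compare levels between genes only. The deposited fold changes and p-values of the authors' own DESeq2 comparison were not used. A further library of the young-SP group, which the study set aside as an outlier, was not analysed here.

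Counts were filtered with filterByExpr, scaled by TMM (factors 0.990 to 1.02) and compared with glmQLFit and glmQLFTest of edgeR 4.0.16 in R 4.3.3. The biological coefficient of variation was 25.1%. DESeq2 1.42.0, limma-voom (limma 3.58.1), other scalings and filters, a replicate block and leaving out each library were alternatives. The tests of edgeR, DESeq2 and limma-voom were also run on 3 simulated datasets that held 200 changed genes. These were built from the means and dispersions of the 5 libraries, and the share of changed genes recovered is not reported here. The genes and lists were chosen with earlier results of these data known. Values per library are given for the genes with an unadjusted p under 0.05, the 8 of the highest mean CPM, the 5 of the widest range and, for a role with none of these, its most abundant gene. Positions are on GRCm38, where GENCODE M21 places 41 of the 42 genes identically, and from its transcripts shared 50-base stretches were counted over both strands. Promoters are RefSeq's (GRCm38.p6). Some genes of the wider pathway lists are counted but not reported by name here.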

Additional observations from a re-analysis of the deposited data

How the results depend on the processing

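The interferon-stimulated genes called were 0 with each other scaling, filter and tool and 0 to 22 without one library, where the 22 came without young-SP replicate 1. The median log2 fold change lay between 0.25 and 1.43 without one library, with the highest value, 1.43, again without young-SP replicate 1. The genes with an unadjusted p under 0.05 were 2 with DESeq2, 3 with limma-voom, 2 with no filter on low counts, 0 with a robust dispersion and 0 to 38 without one library (38 without young-SP replicate 1). The number of genes with a higher mean in the aged-SP group, a count added after seeing the data, was 32 to 40. All genes called were 632 with DESeq2, 203 with no filter and 1 to 578 without one library (1 without aged-SP replicate 1, 49 without aged-SP replicate 4). Where an aged-SP library was left out, the other was assumed to vary like the young-SP ones.

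With a replicate block, 0 interferon-stimulated genes and 2 of all genes were called, 6 of the list had an unadjusted p under 0.05, and the median log2 fold change was 0.46. The groups share replicate numbers 1 and 4, and nothing in the labels says that a number pairs libraries. The deviations from the group means correlated at 0.152 and 0.136 for libraries with the same number. For libraries with different numbers the values lay between -0.152 and 0.0757. With 2 aged-SP libraries, their deviations mirror each other, so these values are not independent. With 2 pairs this is no proof of pairing.

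Of the 15 genes given by library, over 13 alternatives each, 173 results kept their direction and side of the threshold, 8 passed the threshold, each without young-SP replicate 1, and 14 turned sign, all in 6 genes, none of which was called with all 5 libraries. With the replicate block, Ifi27 was at -0.0017 and Iigp1 at -0.08, and with limma-voom Ifitm3 was at 0.03. Without one library, the log2 fold change ran from -0.07 to 0.20 for Ifi27, from -0.33 to 0.90 for Iigp1, from -0.17 to 0.29 for Ifitm3, from -0.04 to 0.67 for Ifitm1, from -0.15 to 1.35 for Oasl2 and from -0.09 to 3.71 for Oas3. The highest value came without young-SP replicate 1 in all but Ifi27, where it came without aged-SP replicate 1. The causes were not tested.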

Other observations

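Not all immune genes followed the interferon-stimulated genes. All 7 markers of natural killer cells had a lower mean in the aged-SP group, with a median log2 fold change of -0.80 (edgeR), and 0 were called. Eomes, a transcription factor of these cells, was at 2.48 and 2.75 CPM in aged-SP replicates 1 and 4 and at 3.63, 5.97 and 6.27 CPM in young-SP replicates 1, 2 and 4, without overlap (log2 fold change -1.02, unadjusted p = 0.0210 and adjusted p = 0.189 in edgeR). Ncr1, which encodes the receptor NKp46, was at 9.91 and 5.82 CPM and at 12.2, 13.6 and 19.6 CPM (log2 fold change -0.94, adjusted p = 0.221 in edgeR). Both genes were chosen after their values were seen.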
